A study of Mus musculus with 4 samples.

Results

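Cyclins and cyclin-dependent kinases (CDKs) were followed in bulk RNA from mouse lungs with 4T1 metastases, after ADC/cmLumiOpto treatment or saline. The genes were taken by symbol from the gene count table. They were the D-type cyclins Ccnd1, Ccnd2 and Ccnd3, the E-type cyclins Ccne1 and Ccne2, the A- and B-type cyclins Ccna2, Ccnb1 and Ccnb2, the kinase gene Cdk1 and the inhibitor gene Cdkn1b. These are 10 of the 56748 genes listed, and all 10 were among the 15320 genes that passed the expression filter. The 4T1 line is a mouse model of triple-negative breast cancer (TNBC), here a luciferase-expressing derivative injected into the tail vein of female BALB/cJ mice, 7 weeks of age. Both groups thus carried the same injected line in an immunocompetent host, whose lung, blood and stromal cells contributed to the RNA. The 2 treated samples came from mice given an anti-CD276 antibody carrying mertansine (DM1), a drug that blocks microtubule assembly, together with cmLumiOpto, a gene therapy that depolarizes the mitochondria of cancer cells with light made inside the cell. The 2 control samples are called saline in their titles and PBS in their treatment label. The label of the treated samples gives 16 mg/kg of conjugate and adds the abbreviation Olap, the methods give 8 mg/kg, and the treatment lasted 3 weeks according to the design text. The labels describe harvested tumor cells, whereas the methods describe dissociated lung tissue. The methods also name 4 biological samples per group, whereas 2 per group were analysed here.

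Cyclins are regulatory subunits that switch on CDKs in turn as a cell divides. D-type cyclins act in G1 phase with CDK4 and CDK6 and start the phosphorylation of the retinoblastoma protein, which releases E2F transcription factors. E-type cyclins with CDK2 drive entry into S phase, cyclin A2 acts in S and G2 phases, and B-type cyclins with CDK1 drive mitosis. The protein encoded by Cdkn1b, p27, binds and restrains cyclin E and cyclin A complexes. Ccna2, Ccnb1, Ccnb2 and Cdk1 are transcribed mainly late in the cell cycle, whereas D-type cyclin genes follow growth signals. Cyclin D1 is abundant in many breast carcinomas. Cyclin levels are also set by protein destruction, which RNA counts do not measure.

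Total counts lay between 15263375 and 19675436 per sample, and no sequencing batch was given in the labels. Nothing in the labels ties a sample to a named mouse, so p-values measure the spread between these samples. Markers of alveolar epithelium were present in every library, with a summed level of 486 to 1775 CPM (counts scaled to a common library size with TMM factors) in the saline samples and 5206 to 6067 CPM in the treated samples. Of these 9 markers, 8 were higher at an unadjusted p under 0.05. Saline replicate 2 had the lowest alveolar sum. The 6 fibroblast markers were all lower at that level, with sums of 3466 to 5071 CPM in saline samples and 1397 to 1722 CPM in treated samples. Leukocyte markers summed to 1370 to 1944 CPM and 2898 to 4643 CPM, with 2 of 7 tested markers higher at that level. Most of each leukocyte sum was the single gene Lyz2, at 1128 to 1687 CPM in saline samples and 2447 to 4299 CPM in treated samples. Lyz2 was also 1 of the 2 markers higher at that level. The cells that its RNA came from were not tested, so the sum need not follow leukocytes alone. Endothelial markers summed to 405 to 517 CPM and 520.2 to 774 CPM, with 3 of 7 higher. Epithelial keratin and junction genes, which are not particular to carcinoma, summed to 3101 to 3424 CPM and 2949 to 3033 CPM, with 0 of 7 past that level. Their sum thus does not measure the amount of carcinoma. No marker passed the adjusted threshold. The part of these cell populations in the cyclin results was not tested, and in bulk RNA fewer cells of a type and less RNA per cell cannot be told apart.

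Expression was compared between the 2 treated and the 2 saline samples with edgeR's quasi-likelihood test over all 15320 genes, with Benjamini-Hochberg adjustment. No member passed an adjusted p of 0.05, a threshold that 0% of all tested genes passed. At an unadjusted p under 0.05, Ccnd1 and Ccnb1 were lower and Ccnd3 was higher, 3 of 10 members, against 23.2% of all genes (12.2% lower and 11% higher). The share was thus close to the background. DESeq2 gave 2 members, Ccnd1 and Ccnb1, at an adjusted p under 0.05 (background 8.83%), and the edgeR exact test gave Ccnd1 alone (background 7.64%). Without the expression filter edgeR called the same 2 members (background 8.84%), and with a replicate block it called 0 (background 3.96%). Of the 10 members, 7 had a log2 fold change below 0, compared with 48% of all tested genes. The median was -0.22 for the members and 0.028 for all tested genes. In 6 members the groups did not overlap, against 57% of all tested genes. In 4 members the treated samples were both lower than either saline sample (28.8% of all genes), and in 2 members both were higher (28.1% of all genes). With 2 samples against 2, an exact permutation test on a single gene cannot give a two-sided p under 0.333.

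**Figure D1:**
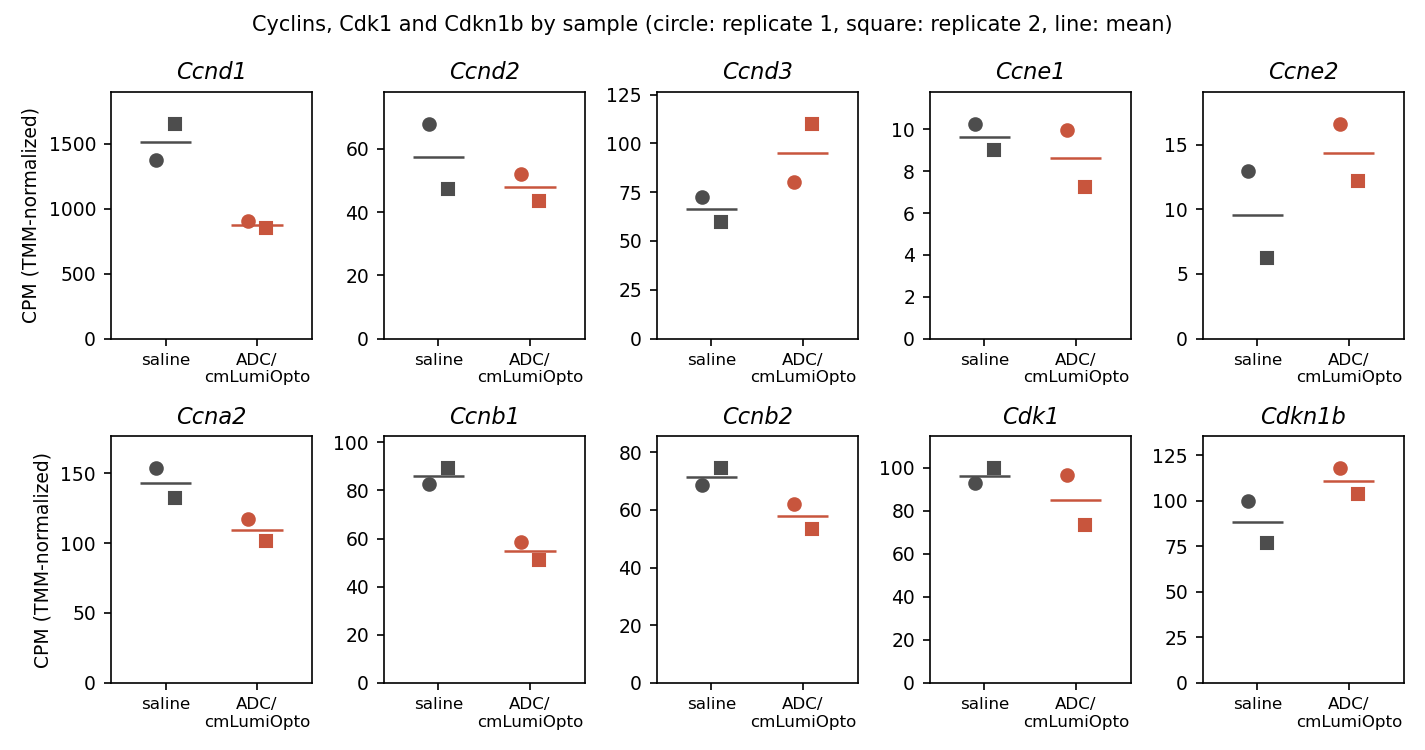
TMM-normalized CPM (vertical axes, each from 0) of the 10 genes in each of the 4 samples, with saline in gray and ADC/cmLumiOpto in red, replicate 1 as a circle, replicate 2 as a square and the group mean as a line. Both treated samples lie below both saline samples for Ccnd1, Ccna2, Ccnb1 and Ccnb2, above them for Ccnd3 and Cdkn1b, and overlap them for the other members.

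Among the D-type cyclins, Ccnd1 was lower, Ccnd3 higher and Ccnd2 overlapping between the groups, and none passed the adjusted threshold. Ccnd1 (ENSMUSG00000070348, chr7:144483668-144493662, minus strand, mm39) encodes cyclin D1, the G1 activator of CDK4 and CDK6. Its counts were 21951 and 24468 with saline and 15931 and 17439 after treatment, or 1372 and 1649 CPM against 903 and 850.4 CPM. Both treated samples were below both saline samples. The mean went from 1511 ± 196 CPM to 877 ± 37.1 CPM (SD, n = 2 each), a log2 fold change of -0.79 (standard error 0.18, 95% interval -1.21 to -0.36). Its adjusted p was 0.116 in edgeR's quasi-likelihood test (unadjusted p = 0.00351). That equaled the lowest adjusted value among the 15320 genes, a tie that Ccnd1 shared with genes of smaller unadjusted p. The adjusted p of Ccnd1 was 0.00281 in DESeq2 and 0.0218 in the edgeR exact test, and over the 13 alternatives it lay between 8.74e-04 and 0.503. Leaving out single samples gave fold changes from -0.92 to -0.64. Counting error alone would give a standard error of 0.010 on the log2 scale at this depth, far below the fitted 0.18. The fitted value rests on spread between samples, which edgeR pools in part with that of other genes.

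Ccnd3 (ENSMUSG00000034165, chr17:47815976-47910616, plus strand, mm39) encodes cyclin D3, which is prominent in blood cell lineages. It had 72.5 and 59.8 CPM with saline and 80.2 and 109.8 CPM after treatment. The groups did not overlap, and the closest pair was saline replicate 1 and ADC/cmLumiOpto replicate 1. The log2 fold change was 0.52 (standard error 0.21, 95% interval 0.0089 to 1.04, edgeR unadjusted p = 0.0471, adjusted p = 0.210). It was 0.27 without ADC/cmLumiOpto replicate 2 and 0.73 without ADC/cmLumiOpto replicate 1. All 7 tested leukocyte markers described above had fold changes above 0, and so had 8 of 9 alveolar and 6 of 7 endothelial markers. That held for 3 of 7 epithelial keratin and junction genes and 0 of 6 fibroblast markers. Fold changes below 0 made up 48% of all tested genes. Higher at an edgeR unadjusted p under 0.05 were 2 leukocyte, 8 alveolar and 3 endothelial markers, and none passed the adjusted threshold. The part of these cell types in the level of Ccnd3 was not tested. Ccnd2 (ENSMUSG00000000184, chr6:127102125-127129156, minus strand, mm39), which encodes cyclin D2, had 67.8 and 47.2 CPM in the saline samples and 52.2 and 43.4 CPM after treatment. The saline samples spanned a wider range than the treated ones, and ADC/cmLumiOpto replicate 1 lay between them. The log2 fold change was -0.27 (standard error 0.22, 95% interval -0.80 to 0.27, edgeR adjusted p = 0.502), and it was 0.0070 without saline replicate 1.

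Compared per kilobase of listed gene length, Ccnd1 made up most of the D-type cyclin RNA in every sample. Its share of the summed level of the 3 genes was 94.96% and 96.7% with saline and 92.9% and 91.3% after treatment. Ccnd3 took 2.69% and 1.88% of the sum in saline samples, and 4.43% and 6.33% in treated samples. Ccnd2 took 2.35% and 1.39%, then 2.69% and 2.34%. The shares of Ccnd1 and Ccnd3 thus did not overlap between the groups, whereas those of Ccnd2 overlapped. The ratio of Ccnd1 to Ccnd3 per kilobase was 35.3 and 51.4 in the saline samples and 21.0 and 14.4 after treatment. No test was made of these shares and ratios, which restate the counts of the 3 genes. LTO1, a gene on the opposite strand whose span overlaps that of Ccnd1, had 183 to 365 counts. Reads from a stretch that both genes transcribe cannot be told apart without strand in the counting. Only spans were compared, so the size of any such stretch is not known here. For Ccnd3 the overlapping gene on the opposite strand was Bysl, with 429 to 614 counts. The kind of strand setting used for counting is not given in the sources used here.

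**Figure D2:**
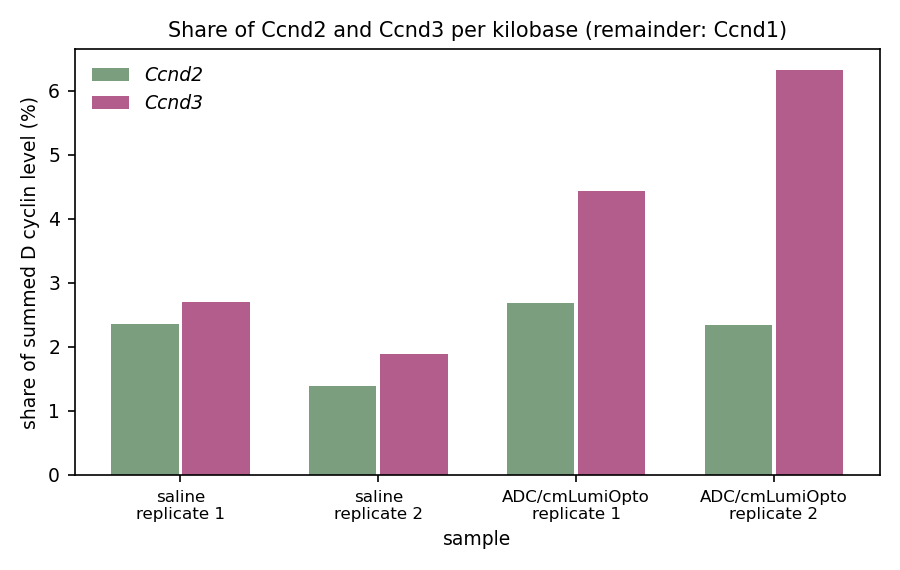
Share of Ccnd2 (green) and Ccnd3 (magenta) in the summed D-type cyclin level per kilobase (vertical axis, percent) in each of the 4 samples, with Ccnd1 as the remainder. Ccnd3 stands at 1.88% and 2.69% in the saline samples and at 4.43% and 6.33% in the treated samples.

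The E-type cyclins were the least abundant members and showed no separation between groups. Ccne1 (ENSMUSG00000002068, chr7:37797409-37806959, minus strand, mm39), for cyclin E1, had 164 and 134 counts with saline and 176 and 149 after treatment. These were 10.3 and 9.03 CPM against 9.97 and 7.27 CPM, and the groups overlapped. The difference on the log2 scale was -0.16 (standard error 0.30, 95% interval -0.88 to 0.55, edgeR adjusted p = 0.771), and it was 0.044 without ADC/cmLumiOpto replicate 2. Ccne2 (ENSMUSG00000028212, chr4:11191351-11204779, plus strand, mm39), for cyclin E2, had 207 and 93 counts with saline and 293 and 250 after treatment. At 12.9, 6.27, 16.6 and 12.2 CPM, ADC/cmLumiOpto replicate 2 was just under saline replicate 1. On the log2 scale the difference was 0.58 (standard error 0.39, 95% interval -0.36 to 1.52, edgeR adjusted p = 0.404). It was 1.19 without saline replicate 1 and 0.16 without saline replicate 2, so the low count of saline replicate 2 set much of its size. The span of Ccne2 overlaps Ints8 on the opposite strand, which had 715 to 995 counts, more than Ccne2 in every sample. Reads from any stretch that both genes transcribe cannot be told apart without strand in the counting, and the size of such a stretch was not examined. Counting error would account for a standard error of 0.12 for Ccne1 and 0.10 for Ccne2. A decrease of the size seen in Ccnd1 lies inside the interval of Ccne1, and an increase of that size lies inside that of Ccne2. Such differences were thus not excluded.

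Ccna2, Ccnb1 and Ccnb2 were each lower in both treated samples than in both saline samples, by differing amounts, and none passed the adjusted threshold. Ccna2 (ENSMUSG00000027715, chr3:36619014-36626299, minus strand, mm39), for the S and G2 phase cyclin A2, had 153 and 133 CPM with saline and 117 and 102 CPM after treatment. Treatment against saline gave a log2 fold change of -0.39 (standard error 0.17, 95% interval -0.80 to 0.032, edgeR adjusted p = 0.241). Exosc9, whose span overlaps Ccna2 on the opposite strand, had 591 to 783 counts. Ccnb1 (ENSMUSG00000041431, chr13:100915158-100923078, minus strand, mm39), for the mitotic cyclin B1, had 82.6 and 89.2 CPM with saline and 58.4 and 51.2 CPM after treatment. Both treated samples were well below both saline samples. The mean went from 85.9 ± 4.62 CPM to 54.8 ± 5.07 CPM (SD, n = 2 each), a log2 fold change of -0.65 (standard error 0.17, 95% interval -1.05 to -0.25). In edgeR's quasi-likelihood test the unadjusted p was 0.00665 and the adjusted p = 0.123. In DESeq2 the adjusted p was 0.0332, and the alternatives lay between 0.0305 and 0.478. Fold changes from -0.74 to -0.56 were obtained when single samples were left out. The processed pseudogene Ccnb1-ps, a copy that could share reads, had 5 to 26 counts.

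Ccnb2 (ENSMUSG00000032218, chr9:70314974-70328829, minus strand, mm39), for the second mitotic B-type cyclin, had almost the same raw count in every library, at 1096, 1104, 1094 and 1097. Scaled to library size these were 68.5 and 74.4 CPM with saline and 62.0 and 53.5 CPM after treatment. At nearly equal counts, both treated samples were thus lower relative to their larger libraries. The fitted log2 fold change was -0.31 (standard error 0.17, 95% interval -0.71 to 0.094, edgeR adjusted p = 0.309). Ccnb2 is the shortest member, at 1531 bases of listed length, and across all tested genes shorter genes were higher after treatment (Spearman's rho -0.34 between length and fold change, across genes rather than replicates). The 621 genes within 10% of its length had a median log2 fold change of 0.31. With this trend removed, the value for Ccnb2 was -0.70 (edgeR adjusted p = 0.120, the lowest of its alternatives, which reached 0.742), next to -0.72 for Ccnb1, whose value had been -0.65. The correction also moved Ccnd2 from -0.27 to -0.089 and Ccne1 from -0.16 to -0.40, and the values of the other members are given with the settings. The transcribed pseudogene Ccnb2-ps had 2 to 10 counts.

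Cdk1 (ENSMUSG00000019942, chr10:69170976-69188768, minus strand, mm39) encodes the kinase that both B-type cyclins activate. It had 92.8 and 99.8 CPM with saline and 96.7 and 73.6 CPM after treatment. ADC/cmLumiOpto replicate 1 lay between the saline samples, and replicate 2 lay below both. The estimate on the log2 scale was -0.18 (standard error 0.19, 95% interval -0.63 to 0.28, edgeR adjusted p = 0.604), and it was 0.0017 without ADC/cmLumiOpto replicate 2. Per kilobase, the ratio of Ccnb1 to Cdk1 was 1.04 and 1.05 with saline and 0.706 and 0.814 after treatment. The ratio of Ccnb1 to Ccnb2 was 0.438 and 0.435, then 0.342 and 0.347. Both ratios were nearly equal in the 2 saline samples and lower in both treated samples. The ratio of Ccna2 to Cdk1 overlapped, at 2.00 and 1.61 against 1.47 and 1.67. The ratios were not tested, and the one between Ccnb1 and Ccnb2 compares genes of very different length, for which the trend given above applies.

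Sequences before the transcription start are shown for Ccnb1, Ccnb2 and Cdk1 because these genes are partners in mitosis. RefSeq windows (GRCm38.p6) were given for 6 of the 10 members, in 7 windows, and 250 bases before each start were searched on both strands. Ccnd1, Ccnd2, Ccne2 and Ccna2 had no window and were not searched. The motifs were TTTGAA, the core of the cell cycle genes homology region (CHR), CCAAT, and the E2F sites TTTCCCGC, TTTGGCGC, TTTCGCGC and TTTGCCGC. Capitals mark CCAAT, its reverse complement or TTTGAA in the 120 bases printed, 5′ to 3′ on the gene's strand. For Ccnb1 the stretch ends 85 bases before the RefSeq start, where a longer annotated transcript begins.
Ccnb1, chr13:100786571-100786690, minus strand: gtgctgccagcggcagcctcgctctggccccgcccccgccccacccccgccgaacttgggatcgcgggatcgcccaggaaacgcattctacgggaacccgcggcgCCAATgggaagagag
Ccnb2, chr9:70421555-70421674, minus strand: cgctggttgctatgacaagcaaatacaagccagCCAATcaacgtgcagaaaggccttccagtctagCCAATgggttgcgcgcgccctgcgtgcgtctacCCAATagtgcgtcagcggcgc
Cdk1, chr10:69352913-69353032, minus strand: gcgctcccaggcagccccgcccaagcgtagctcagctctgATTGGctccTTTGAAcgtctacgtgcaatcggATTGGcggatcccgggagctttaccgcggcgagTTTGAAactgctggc

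In these windows CCAAT was found 2 times for Ccnb1, 3 times for Ccnb2 and 3 times for Cdk1, the last in reverse. It was present in 5 of the 7 member windows and in 33.8% of 32851 promoter windows of the same length. TTTGAA was found 2 times for Cdk1, at positions -71 and -15 from the start, and 1 time for Ccnb2, at -167, upstream of the printed stretch. It was not in the Ccnb1 window, and 16% of all windows held it. Among the 6 members with a window, an E2F site was found for Cdk1 alone, as TTTCGCGC at -131, against 1.86% of all windows. The matches describe the letters in these windows, and no binding was measured.

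The inhibitor gene Cdkn1b was higher in both treated samples than in both saline samples, by a small margin that did not pass the test. Cdkn1b (ENSMUSG00000003031, chr6:134897364-134902476, plus strand, mm39) had 100.02 and 76.8 CPM with saline and 118 and 104 CPM after treatment. The gap between saline replicate 1 and ADC/cmLumiOpto replicate 2 was smaller than the spread within either group. In log2 units the difference was 0.32 (standard error 0.19, 95% interval -0.14 to 0.79, edgeR adjusted p = 0.349). It ranged from 0.15 without saline replicate 2 to 0.52 without saline replicate 1. Per kilobase, Ccnd1 stood at 13.3 and 20.8 times the level of Cdkn1b with saline and at 7.41 and 7.94 times in the treated samples, a ratio that was not tested. Skp2, the subunit that marks p27 protein for destruction, had 33.0 and 27.03 CPM with saline and 32.2 and 32.5 CPM after treatment, a difference of 0.11 on the log2 scale (standard error 0.19, 95% interval -0.34 to 0.55, edgeR adjusted p = 0.756). Cdkn1a, which encodes the related inhibitor p21, had 53.3 and 46.8 CPM in the saline samples and 44.5 and 74.2 CPM after treatment. Its treated samples lay on either side of the saline samples, with a log2 fold change of 0.25 (standard error 0.26, edgeR adjusted p = 0.597).

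The kinases that pair with the D-, E- and A-type cyclins were Cdk6, Cdk4 and Cdk2, and none passed the adjusted threshold. Cdk6, a D-type cyclin partner, had 139 and 191 CPM with saline and 91.0 and 112 CPM after treatment, without overlap. The fitted difference was, in log2 units, -0.70 (standard error 0.22, 95% interval -1.22 to -0.18, edgeR unadjusted p = 0.0156, adjusted p = 0.143). Its adjusted p in DESeq2 was 0.0495, and the alternatives lay between 0.0128 and 0.585. With single samples left out its fold change was -0.93 to -0.45 on the log2 scale, smallest in size without saline replicate 2. Cdk6 has 13989 bases of listed length, and with the length trend removed its value was -0.48 (edgeR adjusted p = 0.250). Cdk4, the other partner of the D-type cyclins, had 271 and 278 CPM against 303 and 238 CPM. Its treated samples enclosed the saline samples, and the log2 fold change was -0.018 (standard error 0.18, 95% interval -0.45 to 0.41, edgeR adjusted p = 0.963). Its sign turned with the scaling, at 0.069 with upper-quartile normalization. Cdk2, the partner of cyclins E and A, had 33.6 and 25.7 CPM against 28.2 and 38.4 CPM, a log2 fold change of 0.17 (standard error 0.23, edgeR adjusted p = 0.699). Its groups also overlapped.

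**Figure D3:**
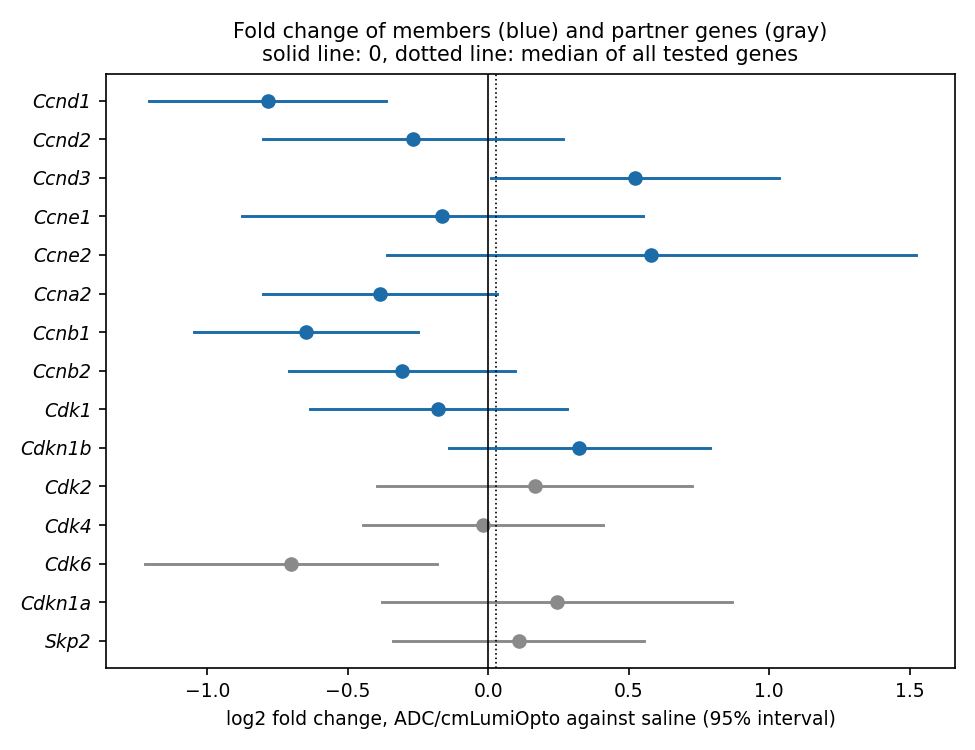
Log2 fold change of ADC/cmLumiOpto against saline (horizontal axis) for the 10 members in blue and 5 partner genes in gray, with 95% intervals from edgeR as bars and the median of all tested genes, 0.028, as a dotted line. The intervals of Ccnd1, Ccnb1 and Cdk6 lie below 0, that of Ccnd3 lies just above 0, and the others cross it.

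Among 78 other cell cycle genes in 8 lists, 76 were tested and 0 passed the adjusted threshold. At an unadjusted p under 0.05, 12 were lower and 4 higher, with a median log2 fold change of -0.054, beside the background shares of 12.2% and 11% given above. In the list of retinoblastoma and E2F proteins, 3 of 13 genes were lower and 1 higher at that level. The 3 lower ones, named after their values were seen, were E2f3, an activator, and E2f7 and E2f8, both repressors, with log2 fold changes of -0.80, -1.16 and -1.44. E2f2, also an activator and likewise named after its value was seen, was the higher one, at 0.92. Of 6 genes for G2/M transcription, 2 were lower, and these were Foxm1 and Mybl2, with log2 fold changes of -0.98 and -0.62, also named after their values were seen. All 5 genes that control CDK1 phosphorylation had values below 0, with a median of -0.33. Among them 1 had an edgeR unadjusted p under 0.05, the phosphatase gene Cdc25c, also named after its value was seen. The 16 other CDKs had a median of -0.0093, with 4 lower and 0 higher at that level. The 14 tested other cyclins had a median of 0.076, with 2 higher and 1 lower. The 7 other CDK inhibitors had a median of -0.046, with 0 at that level, and the 6 CDK adaptors and p27 turnover genes had a median of 0.026, also with 0. The 9 genes for cyclin degradation by the anaphase-promoting complex (APC/C) had a median of 0.059, with 1 in each direction.

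**Figure D4:**
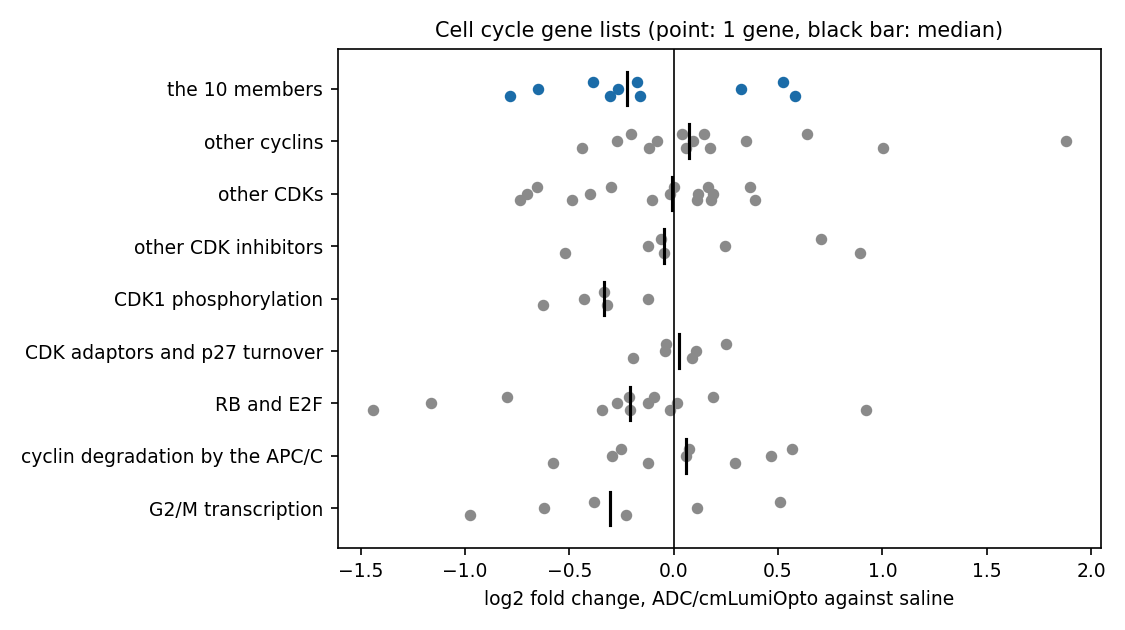
Log2 fold change of ADC/cmLumiOpto against saline (horizontal axis) for each tested gene of the 10 members (blue) and of 8 other cell cycle lists (gray), with list medians as black bars. The lowest medians are those of CDK1 phosphorylation, -0.33, and G2/M transcription, -0.31, and every list except CDK1 phosphorylation has genes on both sides of 0.

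Levels per kilobase ordered the members similarly in both groups. In the saline group Ccnd1 was highest, at 321 ± 41.6 CPM per kilobase (SD, n = 2), followed by Ccnb2 at 46.7 ± 2.72 and Ccna2 at 35.0 ± 3.63. Ccnb1, Cdk1 and Cdkn1b came next, at 20.4 ± 1.09, 19.5 ± 1.00 and 19.4 ± 3.61, and their samples overlapped. Ccnd3 and Ccnd2 followed at 7.54 ± 1.03 and 6.11 ± 1.55, and Ccne1 and Ccne2 were lowest, at 3.62 ± 0.324 and 2.75 ± 1.35. The samples of neighbors in each of these last pairs also overlapped. In the treated group Ccnd1 was again highest, at 186 ± 7.88, with Ccnb2 at 37.7 ± 3.93. Ccna2 at 26.8 ± 2.75 and Cdkn1b at 24.3 ± 2.20 overlapped there, whereas Cdk1 at 17.3 ± 3.30 and Ccnb1 at 13.0 ± 1.203 no longer did. Ccnd3, at 10.8 ± 2.39, overlapped Ccnb1. Ccnd2 at 5.08 ± 0.657, Ccne2 at 4.12 ± 0.893 and Ccne1 at 3.24 ± 0.720 stood last, and each overlapped the next.

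The genes most like each of 4 members were found by the root mean square difference between their log2 CPM over the 4 samples, each centered on its own mean, among 9752 protein-coding genes with a mean of at least 10 CPM. For Ccnd1 they were Vim, Sox9 and Pxylp1, at differences of 0.026, 0.031 and 0.032. For Cdk1 they were Glb1, Mrps5 and Shcbp1, at 0.021, 0.024 and 0.025. For Ccnd2 they were Thnsl1, Gata3 and Stk38l, at 0.031, 0.037 and 0.042, and for Cdkn1b they were Irx1, Sowahc and Ecsit, at 0.018, 0.024 and 0.029. With 4 samples many profiles lie this close, and the likeness is a description.

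**Figure D5:**
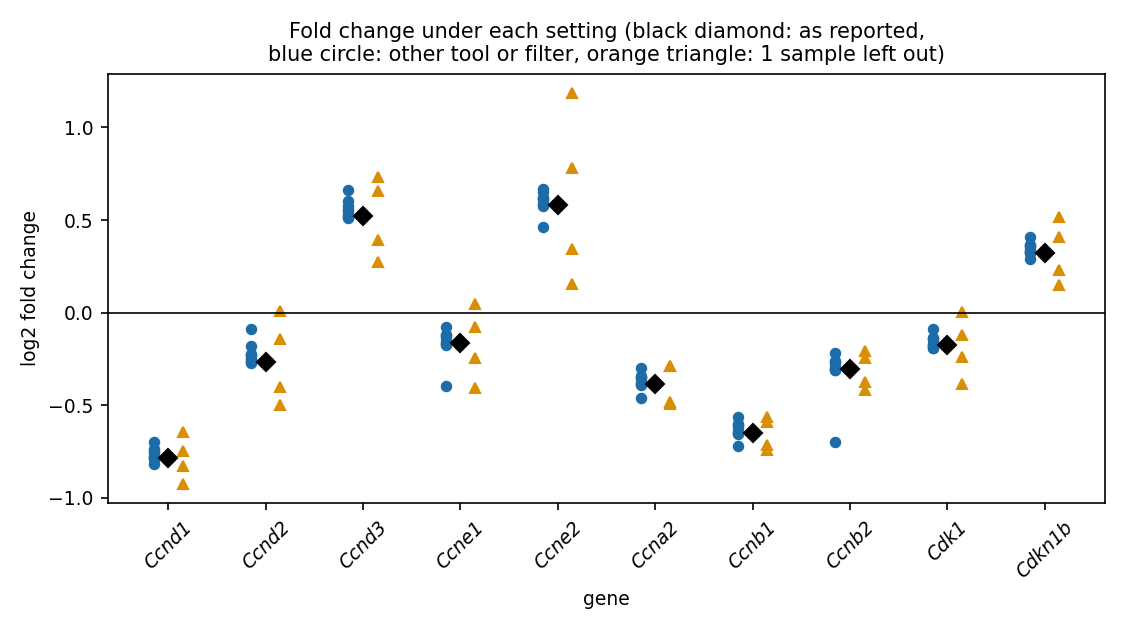
Log2 fold change (vertical axis) of the 10 members under each setting, with the reported value as a black diamond, other tools, scalings, filters and corrections as blue circles and fits with 1 sample left out as orange triangles. Ccnd1, Ccna2, Ccnb1 and Ccnb2 stay below 0 and Ccnd3, Ccne2 and Cdkn1b stay above 0 throughout, whereas Ccnd2, Ccne1 and Cdk1 reach 0 when 1 sample is left out.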

How the data were processed

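Poly-A selected mRNA from 4 samples (2 saline, 2 ADC/cmLumiOpto) was sequenced on an Illumina platform, and the authors aligned reads with HISAT2. The methods name GRCm38, whereas the submitters' processing notes name mm39. The listed gene positions matched GRCm38 for 1 of the 10 members and are printed as mm39. The counting program is not given in the sources used here. The deposited values are raw counts per gene, with 15263375 to 19675436 counts per sample. Columns were matched to samples by library name.

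Tests were run with edgeR 4.0.16 under R 4.3.3 (filterByExpr defaults, minimum count 10 and total 15; TMM; estimateDisp, glmQLFit and glmQLFTest; Benjamini-Hochberg adjustment over all tested genes, threshold 0.05). The standard error is the log2 fold change (prior count 0.125) divided by the square root of F, and intervals are at 95%. CPM per kilobase used the listed gene length. A floor of 3 counts corresponds to 0.152 to 0.197 CPM before TMM scaling, for counting error only. Replicates differed beyond sampling noise (chi-square per degree of freedom 25.0 and 56.5). Procedures were tested on simulated data with log2 changes of 2. These are larger than the change of any member, so recovery at the sizes reported here was not tested.

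The members, lists and tests were chosen with earlier results of these data known. Named genes are all 10 members, Cdk2, Cdk4, Cdk6, Cdkn1a and Skp2, and the 3 nearest profiles of Cdk1, Ccnd1, Ccnd2 and Cdkn1b. E2f2, E2f3, E2f7, E2f8, Foxm1, Mybl2, Cdc25c and the marker Lyz2 were named after their values were seen. Alternatives were DESeq2 1.42.0, the edgeR exact test, other scalings and filters, a replicate block, protein-coding genes only, removal of the length trend (lowess span 0.3) and each sample left out.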

Additional observations from a re-analysis of the deposited data

How the results depend on the processing

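Genes called numbered 0 in the reported fit, where 3553 had an unadjusted p under 0.05, and 1353 in DESeq2, 1170 in the edgeR exact test, 2259 of 25563 without the expression filter and 607 with the replicate block. They ranged from 0 to 218 with 1 sample left out, highest without saline replicate 1; in these fits the lone sample is assumed to vary like the other group. Members called were 0 in the reported fit, 2 in DESeq2, 1 in the exact test and 2 without the filter (Ccnd1 and Ccnb1), and 0 under every other alternative run. The median member log2 fold change, -0.22, was -0.14 with upper-quartile normalization, which moved the median of all genes to 0.11, and lay between -0.40 and -0.071 with 1 sample left out. Sample numbers gave a correlation of same-numbered deviations of 0.099 and mark no stated pairing; the replicate block called 0 members. With 1 sample left out, signs turned for Ccnd2 (-0.50 to 0.0070), Ccne1 (-0.41 to 0.044), Cdk1 (-0.39 to 0.0017), Cdk2 (-0.079 to 0.37), Cdkn1a (-0.17 to 0.57), Skp2 (-0.026 to 0.25) and Cdk4 (-0.20 to 0.14). Cdk4 was also at 0.024 without TMM, 0.069 with upper-quartile normalization, 0.021 with 10 counts in every sample and 0.010 in protein-coding genes. Over the 10 members and Cdk2, Cdk4, Cdk6, Cdkn1a and Skp2 under the 13 alternatives, 175 values kept direction and side of the threshold, 7 became called and 13 changed sign. The cause of these differences was not tested. With the length trend removed, values were -0.82 for Ccnd1, 0.66 for Ccnd3, -0.40 for Ccne1, -0.46 for Ccna2, 0.29 for Cdkn1b, -0.089 for Ccnd2 (reported at -0.27), 0.46 for Ccne2 and -0.19 for Cdk1.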
